A study of Mus musculus with 14 samples.

Results

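Follistatin and 4 related secreted proteins were followed as mRNA in mouse skeletal muscle that had been treated with follistatin or served as control. The genes were taken by symbol, Fst, Fstl1, Fstl3, Wfikkn1 and Wfikkn2, and all 5 are among the 24359 genes used. RNA came from the tibialis anterior, the muscle that lifts the foot, of C57Bl/6 mice. At day 3 there were 3 control and 4 follistatin libraries, at day 7 there were 2 of each, and at day 14 there were 1 control and 2 follistatin libraries. Days 7 and 14 were tested together as the late set, the way the series groups them. The series analysed day 3 as a separate set. Between day 3 and the later days, day and set therefore cannot be told apart. The route and form of the follistatin treatment, the handling of the controls, the age and sex of the mice and whether replicates were separate animals are absent from the labels. The p-values therefore measure only the spread between these libraries, which may be technical, and endogenous Fst mRNA and follistatin mRNA that a treatment might bring in cannot be told apart.

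Activins, myostatin (Mstn) and GDF11 are secreted ligands of the TGF-beta family. They bind type II receptors such as ACVR2B, which recruit type I receptors such as ACVR1B that phosphorylate Smad proteins, and in muscle this signal limits growth. Follistatin wraps around activins, myostatin and GDF11 and keeps them from their receptors, and FSTL3 is a shorter relative with the same kind of action. WFIKKN1 and WFIKKN2, also called GASP-2 and GASP-1, carry a follistatin-like module among several protease inhibitor modules and bind myostatin and GDF11 but not activin. FSTL1 is a secreted glycoprotein with a follistatin-like module that is made mainly by connective tissue cells.

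The 5 genes lie apart in the genome (GENCODE M21, mm10). Fst is on chromosome 13, 114452290 to 114458951, minus strand, and shares 115 exon bases with the predicted gene Gm47040 on the opposite strand. Fstl1 is on chromosome 16, 37776873 to 37836514, plus strand, and Wfikkn2 on chromosome 11, 94235956 to 94246005, minus strand. Wfikkn1 is on chromosome 17, 25877628 to 25880858, minus strand. Fstl3 is on chromosome 10, 79777272 to 79782630, plus strand, and 1157 of its 2445 exon bases are shared with Prss57 on the opposite strand. The strand setting of the libraries is not given in the sources used here, so reads from Fstl3 and Prss57 cannot be told apart. The authors' deposited table gives Fstl3 a locus of 672 kb, far beyond the gene's 5.36 kb.

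Among the 3 members abundant enough to test, Wfikkn2 had the largest difference after Fst, which lay in the late set and did not pass. Its paralogue Wfikkn1 was close to 0 throughout, and the stretches upstream of both are shown. RefSeq (GRCm38.p6) promoter windows exist for 4 of the 5 genes. The 250 bases before each RefSeq start were searched on both strands for the E-box letters CANNTG, which read the same on either strand and are the kind of letters bound by myogenic regulators. For Wfikkn2, 128 of those bases lie in an exon of another GENCODE transcript and are not printed, and the rest lies in an intron of a longer, non-coding transcript, whose next exon begins at the RefSeq start. The sequences run 5′ to 3′ on the minus strand, as chr11:94242708-94242829 for Wfikkn2 and chr17:25880859-25881108 for Wfikkn1, with capitals marking CANNTG.
Wfikkn2: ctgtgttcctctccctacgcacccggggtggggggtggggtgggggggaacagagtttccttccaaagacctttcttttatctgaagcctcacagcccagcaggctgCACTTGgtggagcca
Wfikkn1: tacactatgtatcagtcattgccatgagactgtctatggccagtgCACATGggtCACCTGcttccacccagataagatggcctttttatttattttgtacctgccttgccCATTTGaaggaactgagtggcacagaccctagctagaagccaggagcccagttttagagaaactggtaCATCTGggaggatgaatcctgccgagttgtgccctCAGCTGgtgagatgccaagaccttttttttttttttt

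The full windows held 4 matches in Wfikkn2, starting 143, 121, 83 and 62 bases before the start, and 5 in Wfikkn1. Those at 121, 83 and 62 lie in the exon stretch of Wfikkn2 that is not printed. Fstl3 held 3 and Fstl1 held 0. Of 32851 RefSeq promoter windows of this length, 66.2% held at least 1 match. At least 4 were held by 3.84%, and at least 5 by 1.15%. The letters CAGACA, which contain the core that Smad proteins bind, were found on either strand once in Fstl3 and in none of the other windows, against 17.1% of all windows with a match. These matches describe letters in a window and were not tested for binding.

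Levels are FPKM, the fragments of a gene divided by its length in kilobases and by the mapped fragments of its library. They summed per library to between 364513 and 532859, and read totals were not used here. Libraries of follistatin at days 7 and 14 summed to 364513 to 433552, below the 485755 to 510584 of their controls. These sums include genes marked as too abundant to estimate, which can be listed as 0. The part of those genes in this difference was not tested. Relative depth, read from the steps between low values within a set, ranged from 0.685 to 1.27 at day 3 and from 0.714 to 1.05 in the late set. The first replicate of the day 7 controls had 16158 genes with a value above 0, and the other late libraries had 19383 to 20283. Its relative depth, 1.05, was the highest of the late set, and the day 3 libraries had 15766 to 17161 such genes. Fibre markers were abundant: the 5 of 8 not marked as too abundant to estimate at day 3 had means of 1853 to 19054 FPKM in the controls of that day. In the late set all 8 carried that mark. In bulk RNA, fewer cells of a type and less RNA per cell cannot be told apart.

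In control muscle the 5 genes, called traps here after the name of their list, were expressed in a steep order. Fstl1 was highest, with 14.2, 24.6 and 43.3 FPKM as the lowest, median and highest of the 6 control libraries. Wfikkn2 followed at 4.45 ± 0.483 FPKM (SD, n = 6) and Fst at 1.09 ± 0.201 FPKM (n = 6). The 6 libraries of Fstl1, Wfikkn2 and Fst did not overlap with one another. Fstl3 (0.137 ± 0.0598 FPKM, n = 6) and Wfikkn1 (0.0617 ± 0.0582 FPKM, n = 6) came last and overlapped. FPKM is scaled to transcript length, which lets levels be compared between genes. The length used for Fstl3 is not given in the sources used here, and with the wide locus of the authors' deposited table its place in this order is uncertain.

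**Figure D1:**
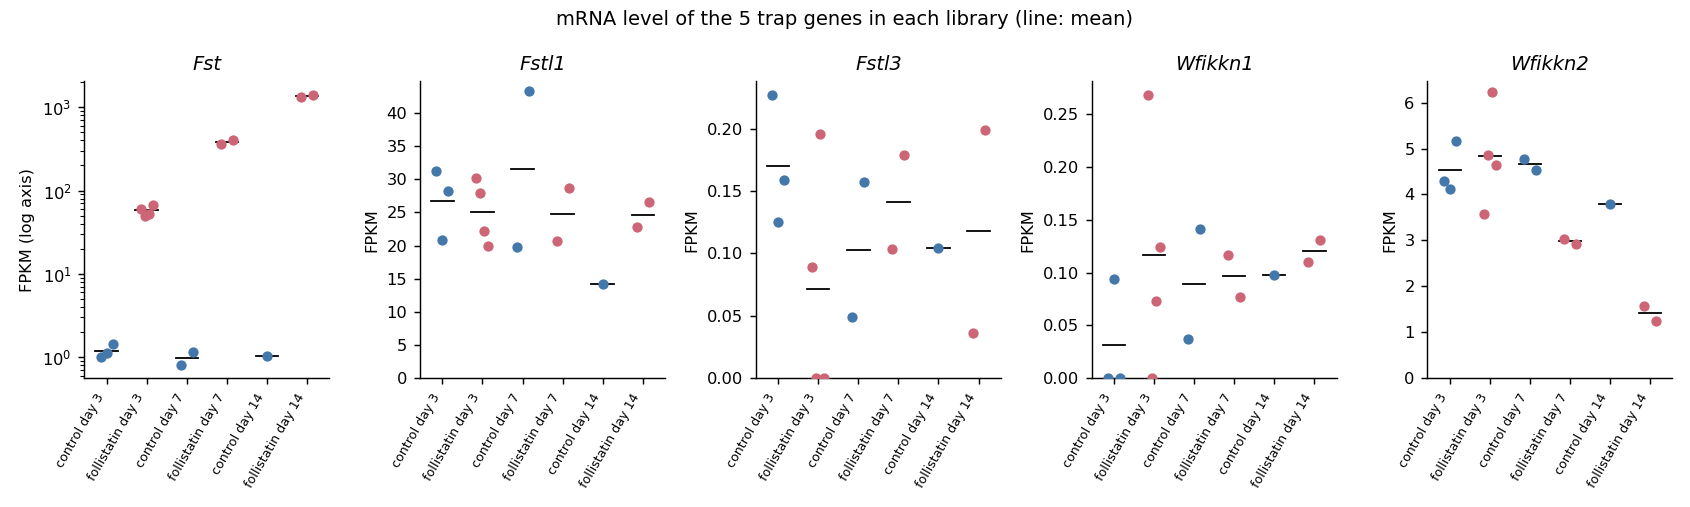
FPKM of the 5 trap genes in each of the 14 libraries (points, control blue and follistatin red) with the group mean (line); the Fst axis is logarithmic and the others start at 0. Fst was higher with follistatin at each day, with follistatin Wfikkn2 lay at 3.04 and 2.93 FPKM on day 7 and at 1.57 and 1.26 FPKM on day 14, and Fstl3 and Wfikkn1 stayed under 0.3 FPKM.

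Fst rose in follistatin muscle and lay higher with each later day. The day 3 controls held 1.012, 1.12 and 1.42 FPKM, and the day 3 follistatin libraries held 60.4, 49.7, 52.5 and 67.8 FPKM. At day 7 the controls held 0.808 and 1.17 FPKM, against 367 and 407 FPKM with follistatin. The day 14 control held 1.04 FPKM, and the follistatin libraries 1315 and 1421 FPKM. No follistatin library overlapped with a control, as for 8.31% of genes at day 3 and 8.96% in the late set with follistatin higher. Both day 14 libraries above both of day 7 and these above the controls was the order of 2.45% of genes. The means stood in a ratio of 48.7 on day 3, 392 on day 7 and 1318 on day 14. In control libraries 10433 to 11122 genes were listed above Fst, against 911 to 1247 in the follistatin libraries of day 3. In those of day 7, 198 and 146 genes were listed above Fst, and in those of day 14, 24 and 34. Genes marked as too abundant to estimate, 4 at day 3 and 31 in the late set, can be listed as not expressed. Where they are, these counts miss them, so the counts can be too low, above all at day 14.

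The rise passed the test at day 3 with a change of 4.74 on the log2(FPKM + 1) scale (SE 0.12, limma adjusted p = 6.5e-07) and in the late set with 8.51 (SE 0.51, adjusted p = 0.000841). At day 3, 1 of the 3 members tested was called, Fst, where 1.49% of 11268 genes were. In the late set Fst was again the only call among 3 tested, where 5.5% of 11047 genes were called. The late set called 247 genes higher and 361 lower, which became 385 and 248 with rescaling by the median ratio and 414 and 326 with quantile normalization. Fst had the largest rise of the late set and ranked 3 among rises at day 3. The effect was larger in the late set than at day 3 by 3.77 (SE 0.56, adjusted p = 0.0322), where 0.0884% of 11306 genes differed, and this call ended under 11 of 21 alternatives.

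Between day 7 and day 14 Fst in follistatin muscle stood at 387 ± 28.7 and 1368 ± 75.3 FPKM (n = 2 each), 3.53-fold higher at day 14. The log2 difference was 1.82 (SE 0.23, unadjusted p = 0.000245), but the limma adjusted p was 0.124 and no member was called in this comparison, where 0.137% of 10940 genes were. Treated libraries did not overlap between those days for 35.1% of genes. Control Fst did not pass between the late set and day 3 (-0.12, limma adjusted p = 0.657), a comparison that called 0 of 3 members and 8.7% of 11155 genes.

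Wfikkn2, the myostatin-binding WFIKKN2, lay at control levels at day 3 and lower with follistatin at days 7 and 14. At day 3 the controls held 4.30, 4.13 and 5.16 FPKM, and the follistatin libraries 3.58, 4.86, 6.22 and 4.65 FPKM. At day 7 the controls held 4.77 and 4.53 FPKM and the follistatin libraries 3.04 and 2.93 FPKM. The single day 14 control held 3.80 FPKM, and its follistatin counterparts 1.57 and 1.26 FPKM. The groups overlapped at day 3, while the 4 late follistatin libraries were the lowest of all 14, and both of day 14 lay below both of day 7. How many genes share this order over all 14 libraries was not counted. The controls' mean was 1.56 times that of follistatin at day 7 and 2.69 times at day 14, the latter against a single control.

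The late difference of Wfikkn2 was -0.79 on the log2(FPKM + 1) scale (SE 0.22, 95% interval -1.31 to -0.27), with means of 4.37 ± 0.508 (n = 3) and 2.20 ± 0.917 FPKM (n = 4), and it did not pass (unadjusted p = 0.00812, limma adjusted p = 0.0776). Its change lay at percentile 3.08 of all genes tested. Groups that did not overlap with follistatin lower were found for 21.5% of genes, and the order of day 14 below day 7 below the controls for 6.52%. It was called with all 14 libraries in 1 fit (limma adjusted p = 0.00631), which called 1943 of 11306 genes, and without small RNA genes (0.0479), which called 964 of 10742, both larger shares than the 608 of 11047 above. It was also called with day as a covariate (0.0401), which called 485 of 11047. Of 17 alternatives only these 3 called Wfikkn2, and 14 did not. The authors' deposited table, from Cuffdiff, lists Wfikkn2 as significant in the late set (log2 fold change -0.999, q = 0.00089435), where that table lists 17.8% of genes as significant. With the day 7 libraries alone the difference was -0.50 (limma adjusted p = 0.26).

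At day 3 the difference of Wfikkn2 was 0.06 (95% interval -0.29 to 0.42, limma adjusted p = 0.895). The late effect differed from that of day 3 by -0.85 (SE 0.29, unadjusted p = 0.011), which did not pass (limma adjusted p = 0.238). Within follistatin muscle, day 14 lay below day 7 by 0.73 on that scale, the difference being -0.73 (SE 0.20, limma adjusted p = 0.893). Markers of other cell types were compared in the late set, where all genes tested had a median change of -0.09. Smooth muscle and pericyte markers had a median of -0.78, with 0 of 8 above 0, and those of Schwann cells -0.98, tendon -0.75, adipocytes -0.63 and endothelial cells -0.58. Macrophage markers had a median of 0.54, with 8 of 8 above 0. Those of satellite cells and myoblasts had 0.04, with 3 of 4 above 0. Those of fibroblasts and fibro-adipogenic progenitors had -0.19, with 4 of 10 above 0. By limma 1 of 8 endothelial markers fell. In the other lists named here 0 markers passed. An unadjusted p under 0.05 was found for 7 of 8 endothelial, 5 of 8 smooth muscle and pericyte, 3 of 4 Schwann cell and 1 of 6 tendon markers. It was found for 2 of 4 satellite cell and myoblast, 0 of 10 fibroblast and fibro-adipogenic progenitor, 0 of 3 adipocyte and 0 of 8 macrophage markers. Over all genes tested it was found for 3124 of 11047. The summed level of the 8 smooth muscle and pericyte markers ranged from 146 to 199 FPKM in late controls and from 47.9 to 115 FPKM in late follistatin libraries. That of the 8 endothelial markers ranged from 146 to 197 FPKM in late controls and from 83.4 to 130 FPKM in late follistatin libraries. None of the markers of both lists was at 0 in any library, and their part in the Wfikkn2 difference was not tested. After rescaling by the median ratio, Wfikkn2 differed by -0.71 (limma adjusted p = 0.0946).

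**Figure D2:**
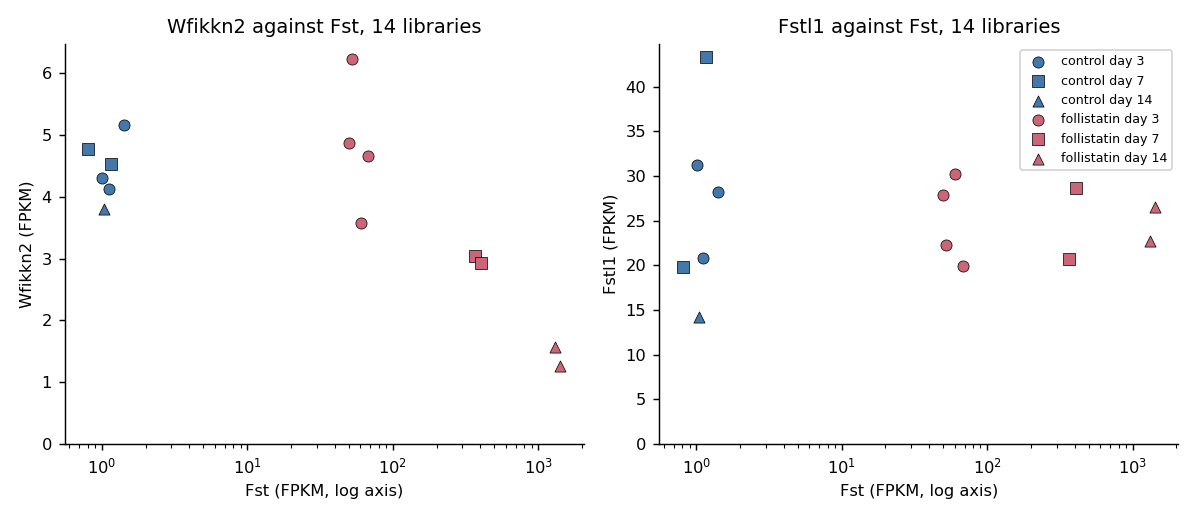
Wfikkn2 (left) and Fstl1 (right) in FPKM against Fst in FPKM on a log axis, 1 point for each of the 14 libraries, by treatment (colour) and day (shape). The 4 libraries with the most Fst hold the 4 lowest Wfikkn2 values, an order not counted over all genes, and Fstl1 shows no such order. Day and Fst level rise together among follistatin libraries.

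The level of Fst and the day of treatment rise together in these libraries and cannot be told apart. Between day 3 and the later days, the separately analysed set differs as well. Set side by side, the follistatin groups held 57.6, 387 and 1368 FPKM of Fst at days 3, 7 and 14 and 4.83, 2.98 and 1.41 FPKM of Wfikkn2. Over the same days Fstl1 stood at 25.1, 24.7 and 24.6 FPKM, Fstl3 at 0.0712, 0.141 and 0.118 FPKM and Wfikkn1 at 0.116, 0.0968 and 0.12 FPKM. A 48.7-fold difference in Fst at day 3 thus stood beside a Wfikkn2 mean 1.07 times that of the controls.

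Fstl1 did not pass in either set, and its groups overlapped in both. At day 3 the controls held 31.3, 20.9 and 28.2 FPKM and the follistatin libraries 30.3, 27.9, 22.2 and 19.9 FPKM. Late controls held 19.8 and 43.3 FPKM on day 7 and 14.2 FPKM on day 14. Their follistatin counterparts held 20.7 and 28.7 FPKM on day 7, then 22.8 and 26.5 FPKM on day 14, within the range of those controls. The difference was -0.09 at day 3 (95% interval -0.49 to 0.31, limma adjusted p = 0.854) and 0.08 in the late set (-0.68 to 0.84, limma adjusted p = 0.887). The wide late interval came with a spread of 25.8 ± 15.5 FPKM among the 3 controls, and without the day 14 control the difference was -0.25.

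**Figure D3:**
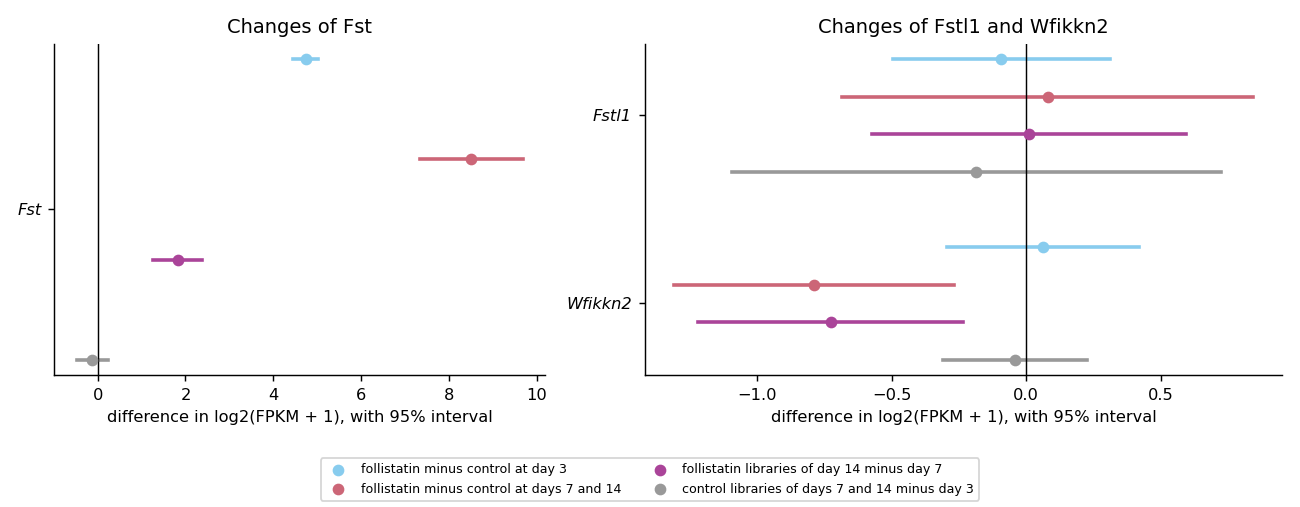
Difference in log2(FPKM + 1) with its 95% interval from limma for Fst (left) and for Fstl1 and Wfikkn2 (right), for 4 comparisons (colours). The intervals of Fstl1 all include 0, and those of Wfikkn2 lie below 0 for the late set and for day 14 against day 7, neither of which passed after adjustment over all genes.

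Fstl3 and Wfikkn1 were listed under 0.3 FPKM in all 14 libraries. Their FPKM values were scaled by the relative depth of each library, which was itself estimated from low values. Scaled values lay within 0.0359 of a step from whole multiples of a step found for each gene and set. That step was the largest tried at which every value came near a whole multiple, so this closeness was a condition of the search. At day 3 Fstl3 stood at 2, 1 and 1 steps in the controls and at 1, 0, 2 and 0 in the follistatin libraries. Wfikkn1 stood at 0, 1 and 0 steps in the day 3 controls and at 4, 0, 1 and 1 with follistatin. The highest late value was 8 steps for Fstl3 and 7 for Wfikkn1. Both genes lay under the mean of 1 FPKM needed for the test, their groups overlapped in both sets, and the authors' deposited table did not test them. If the smallest step is 1 fragment, these values rest on few fragments, and what size of difference could have been detected was not tested. Where Wfikkn1 was above 0, Wfikkn2 stood 9.62 to 129.8 times higher in the same library.

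The balance among the 5 traps shifted to Fst. Fst made up 2.36% to 5.39% of their summed FPKM in the 6 controls. With follistatin the share was 60.3% to 73.3% on day 3. It was 93.9% and 92.7% in the day 7 libraries, and 98.2% and 98.1% in those of day 14. Fstl1 made up 73.8% to 87.8% in the controls, and these mRNA levels do not show whether FSTL1 binds the ligands that follistatin binds. The other 4 traps together stood at 30.9 ± 10.6 FPKM in controls (n = 6) and 28.6 ± 4.03 FPKM with follistatin (n = 8), so the shift in share came with the Fst level.

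**Figure D4:**
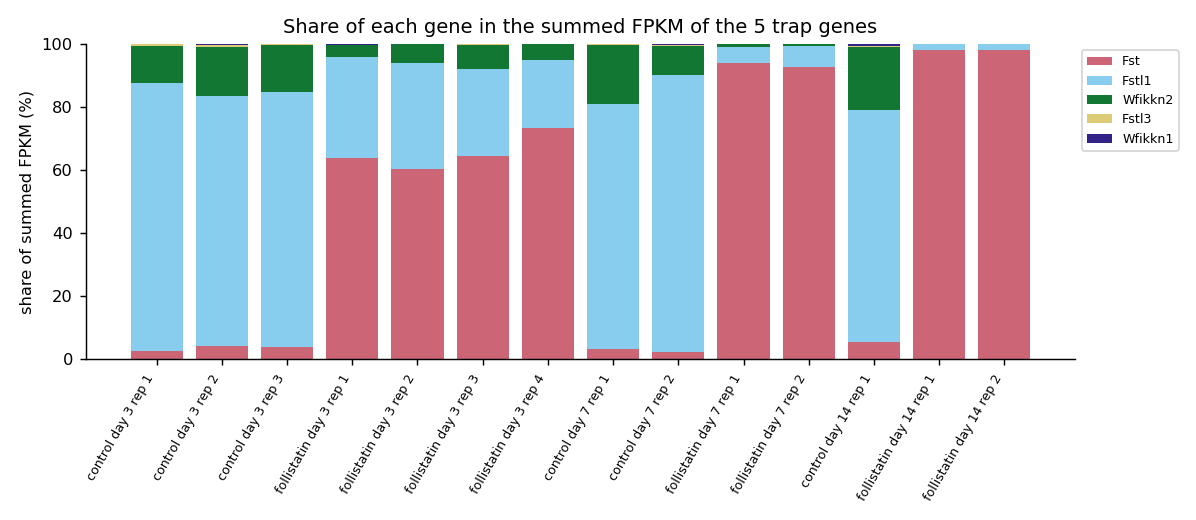
Share of each trap gene in the summed FPKM of the 5, in percent, 1 bar for each library. Fstl1 takes most of each control bar, at 73.8% to 87.8%, and Fst takes 60.3% to 98.2% of each follistatin bar.

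The ligands that these proteins bind were set beside them. The myostatin gene Mstn had 17.1, 16.3 and 18.0 FPKM in the day 3 controls and 37.9, 25.5, 26.1 and 23.5 FPKM with follistatin. These groups did not overlap, as for 8.31% of genes with follistatin higher, and the difference did not pass (0.67, limma adjusted p = 0.0811). The late controls of Mstn held 12.9, 20.2 and 23.7 FPKM, and the follistatin libraries 18.3, 39.8, 52.8 and 36.1 FPKM, which overlapped (0.87, limma adjusted p = 0.15). The authors' deposited table lists Mstn as significant in both sets, with log2 fold changes of 0.68 and 0.95, where it lists 6.25% and 17.8% of genes. Gdf11 differed by 0.41 at day 3 (limma adjusted p = 0.509) and by 0.49 in the late set (limma adjusted p = 0.0921). The activin subunit genes Inhba and Inhbb had group means of 0.126 to 0.509 FPKM in both sets and were not tested.

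Summed over Mstn, Gdf11, Inhba and Inhbb, ligand mRNA stood 16.4 to 26.0 times above Fst mRNA in the 6 controls. With follistatin the order turned, and Fst stood 1.38 to 2.49 times above these ligands on day 3. The ratio was 16.6 and 8.96 in the day 7 libraries, and 22.3 and 34.5 in those of day 14. Mstn stood 2.71 to 6.24 times above Wfikkn2 in controls. With follistatin it stood 4.20 to 10.6 times above on day 3, 6.04 and 13.6 times in the day 7 libraries, and 33.6 and 28.7 times in those of day 14. These are ratios of mRNA levels per length, not of protein.

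Of 79 other genes of the pathway in 6 lists, 52 could be tested at day 3, of which 0 rose by limma, 3 fell and 49 did not pass. Over all genes tested at day 3, 1.49% were called. Of the 52, 9 had an unadjusted p under 0.05, as had 1711 of all 11268. Their median change was -0.09, against 0.01 over all genes tested. Late, 50 were tested, 2 rose, 5 fell and 43 did not pass, with a median of -0.31 against -0.09 over all genes, of which 5.5% were called. An unadjusted p under 0.05 was found for 20 of the 50, and for 3124 of all 11047. Among late controls compared with day 3 controls, 1 of 51 rose and 6 fell, where 8.7% of all genes were called.

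Other secreted antagonists and ligand-binding proteins made up 1 of the lists. Igsf1, which encodes a membrane glycoprotein of the immunoglobulin family, rose in the late set from 0.759 ± 0.0886 (n = 3) to 2.37 ± 0.382 FPKM (n = 4; limma adjusted p = 0.0129). Of the genes of this list reported here, 9 were tested at day 3, with 0 passing by limma (0 at an unadjusted p under 0.05), and 8 in the late set, with 1 rising and 0 falling by limma (2 at an unadjusted p under 0.05). Of 13 relatives with follistatin-like modules, 6 were tested at day 3 and 5 in the late set, and 0 passed by limma (1 and 2 at an unadjusted p under 0.05). Among them Fstl4 and Fstl5 were too low to test.

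Receptor and Smad partner genes that passed were lower with follistatin. Acvr1b, the type I receptor of activin and myostatin, held 39.996, 33.7 and 31.0 FPKM in the day 3 controls and 18.5, 23.1, 21.5 and 18.4 FPKM with follistatin (-0.75, limma adjusted p = 0.0196). Late, it fell from 19.4 ± 1.44 (n = 3) to 8.996 ± 1.42 FPKM (n = 4; -1.03, limma adjusted p = 0.00991). Skil, which encodes the Smad corepressor SnoN, fell from 6.81 ± 0.272 (n = 3) to 3.18 ± 0.824 FPKM (n = 4) at day 3 (limma adjusted p = 0.0271) and from 5.02 ± 0.948 to 1.60 ± 0.235 FPKM in the late set (limma adjusted p = 0.00737). Acvr1, a type I receptor of BMPs, fell in the late set from 9.31 ± 0.599 to 3.73 ± 0.891 FPKM (limma adjusted p = 0.0109).

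Acvr2b, the type II receptor of myostatin and activin, stood at 6.47 ± 0.677 (n = 3) and 5.71 ± 0.404 FPKM (n = 4) at day 3 (-0.15, limma adjusted p = 0.524). It fell in the late set from 2.59 ± 0.0314 (n = 3) to 1.41 ± 0.288 FPKM (n = 4; limma adjusted p = 0.0424). Its controls differed between the sets by more than that (-1.05, limma adjusted p = 0.000953). Ltbp3, which binds latent TGF-beta, fell at day 3 from 12.4 ± 0.684 to 8.37 ± 0.484 FPKM (limma adjusted p = 0.0201). Among ligands, Tgfb3 fell in the late set from 12.4 ± 1.08 to 7.15 ± 1.37 FPKM (limma adjusted p = 0.0352), and Inha, the inhibin alpha subunit, rose from 4.01 ± 1.43 to 7.47 ± 0.868 FPKM (limma adjusted p = 0.0499).

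These pathway calls depended on single libraries and on settings. The calls of Acvr1b, Skil and Ltbp3 at day 3 ended without control replicate 1 or 2 (limma adjusted p from 0.0793 to 0.121). Without control day 7 replicate 1 or the day 14 control, 6 of the 7 late calls ended (0.0558 to 0.21), Skil being the exception in both cases. Skil was the only gene of the 7 that was called with any 1 late library left out. The other libraries whose omission ended calls were control day 3 replicate 3 (Skil and Ltbp3), follistatin day 3 replicates 1 (Acvr1b and Skil), 3 (Ltbp3) and 4 (Skil), and control day 7 replicate 2 (Tgfb3, Acvr2b and Igsf1). Without 1 of the 4 late follistatin libraries, calls of Inha, Acvr2b or Tgfb3 ended (limma adjusted p from 0.0515 to 0.0903). With the day 7 libraries alone, all 7 late calls ended (limma adjusted p from 0.133 to 0.316), in a fit that called 30 of 10978 genes. With no filter on low values the call of Skil ended at day 3 (limma adjusted p = 0.0637), as did those of Tgfb3, Acvr2b and Inha in the late set (0.0642 to 0.094). With day as a covariate those of Inha (0.0523) and Acvr2b (0.0543) ended.

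**Figure D5:**
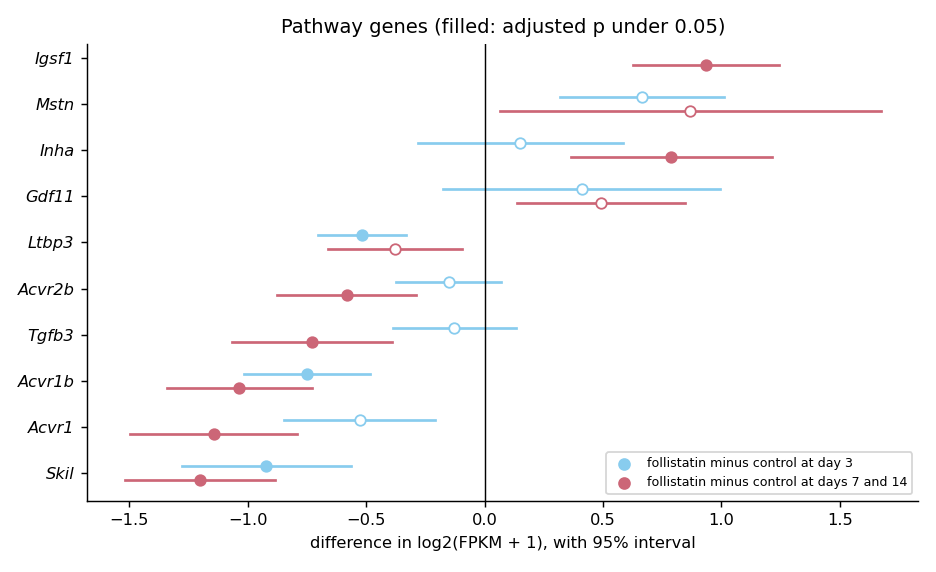
Difference in log2(FPKM + 1) with its 95% interval for pathway genes called in either set, with Mstn and Gdf11, at day 3 (light blue) and at days 7 and 14 (red); filled points have a limma adjusted p under 0.05. Acvr1b and Skil lie below 0 in both sets, and Igsf1 was tested in the late set only.

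The genes with the pattern nearest to each member over the 14 libraries were found by the root mean square difference of scaled log2 levels among 10443 genes, as a description. Nearest to Fst were Ehd4 (0.184 SD), Pdia6 (0.224 SD) and Srpk3 (0.237 SD). Ehd4 had means of 19.95 FPKM in day 3 controls, 31.9 with follistatin at day 3, 38.2 at day 7 and 44.9 at day 14. Pdia6, a protein disulfide isomerase of the endoplasmic reticulum, had 21.2, 35.1, 47.9 and 74.4 FPKM in the same groups. Srpk3, a kinase of muscle, had 21.4, 32.0, 36.8 and 41.7 FPKM. These levels differed far less than those of Fst, in the same order of days.

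Nearest to Fstl1 were the matrix genes Fbn1 (0.307 SD), Col3a1 (0.481 SD) and Loxl2 (0.521 SD), which encode fibrillin-1, a fibrillar collagen and a collagen cross-linking enzyme. Fbn1 had a mean of 9.90 FPKM in the day 7 controls and 4.20 in the day 14 control, and Col3a1 157 and 62.5 FPKM, beside 31.6 and 14.2 FPKM of Fstl1. The summed FPKM of the 10 markers of fibroblasts and fibro-adipogenic progenitors ranged from 375 to 733 in controls and from 378 to 633 with follistatin, with the highest late control value, 730, in the library that held 43.3 FPKM of Fstl1 and the lowest, 375, in the one that held 14.2 FPKM. Their part in the spread of Fstl1 was not tested. At days 7 and 14, 0 of the 10 markers passed by limma, also at an unadjusted p under 0.05.

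Nearest to Wfikkn2 were Pacs2 (0.302 SD), Ctc1 (0.323 SD) and Zfp651 (0.326 SD). Pacs2, a sorting protein, had 15.6 FPKM at day 3 in both treatments, 12.5 at day 7 and 9.50 at day 14 with follistatin. Zfp651, a zinc finger protein, had 23.1, 18.5 and 10.2 FPKM with follistatin at days 3, 7 and 14, against 25.0, 25.4 and 23.2 FPKM in the controls. Ctc1, a component of a telomere complex, had 3.84, 3.35 and 2.71 FPKM with follistatin on those days.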

How the data were processed

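Per the labels, the 14 libraries were made from poly(A) RNA with a TruSeq kit of Illumina. Reads were processed with TopHat and Cuffdiff on mm10, per the submitters' processing notes; versions, annotation and strand setting are not given in the sources used here. The authors deposited FPKM for 24386 genes per library, and 2 tables of their Cuffdiff comparisons (MCS is the control arm) with log2 fold changes, test scores, p-values and q-values. Here 27 symbols turned into dates were dropped, and genes the authors marked HIDATA, too abundant to estimate (4 at day 3, 31 late), stayed out of tests because they can be listed as 0.

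Tests used limma 3.58.1 in R 4.3.3 (lmFit, eBayes with trend, two-sided) on log2(FPKM + 1), which understates changes of low genes, keeping genes whose mean reached 1 FPKM. A call needs a p under 0.05 after Benjamini-Hochberg adjustment over all genes tested. Groups came from sample titles. The 5 comparisons were day 3, the late set, the difference of their effects over 14 libraries, follistatin day 14 against day 7, and late against day 3 controls. The members, lists and naming rule (the 5 members, Mstn, Gdf11, Inhba, Inhbb, Acvr2b, list genes called in a set, and the 3 nearest patterns per member above 1 FPKM) were chosen with earlier results of these data known. One gene of the lists is not reported here and was left out of their counts.

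Absolute depth is unknown. Relative depth came from ratios of low FPKM values (under 0.5) between libraries. On simulated data, the fit recovered 99% of genes changed by 2 on the log2 scale at day 3, 95.9% in the late set and 38.8% between days 14 and 7. Of genes changed by 1, it recovered 89%, 77% and 0% in these comparisons. The simulation changed 100 genes by each size and drew noise independently for each gene and library. Deviations shared by many genes of a library were not simulated, so these rates need not hold for the real libraries. Same-numbered control and follistatin libraries did not deviate together, so numbers were not used as pairs. No 2 libraries were duplicates. Alternatives were a pseudocount of 0.1, a filter at 5 FPKM or none, quantile normalization, rescaling by the median ratio, a block of replicate numbers, robust eBayes, 1 fit of all libraries, day as a covariate, day 7 alone, and leaving out each library. Leaving out the small RNA genes was added after the data were seen.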

Additional observations from a re-analysis of the deposited data

Results flagged for a closer look

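The follistatin effect on Fst differed between the late set and day 3 by 3.77 on the log2(FPKM + 1) scale (SE 0.56, limma adjusted p = 0.0322). All 4 late follistatin libraries lay above all 4 of day 3, and how many genes show that separation was not counted. For the difference of effects the limma adjusted p ranged from 0.0106 to 0.149 over 21 alternatives, and the call ended with no filter (0.0632), with robust eBayes (0.0866) and without any of 9 single libraries: control day 3 replicates 1, 2 and 3 (0.0858, 0.072 and 0.149), follistatin day 3 replicates 1, 2 and 3 (0.0565, 0.0622 and 0.0788), control day 7 replicates 1 and 2 (0.122 and 0.052) and the day 14 control (0.0879).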

How the results depend on the processing

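Fst was called in all 16 alternatives at day 3 (4.66 to 5.49) and all 18 in the late set (7.61 to 9.38). The count of members called moved to 2 in the late set, with Wfikkn2, when all 14 libraries were fitted together, with day as a covariate and without small RNA genes. It moved from 1 to 0 for the difference of effects with no filter or robust eBayes, and lay at 0 to 1 when single libraries were left out. It moved from 0 to 1, with Fst, for day 14 against day 7 with a pseudocount of 0.1 (limma adjusted p = 0.0424), a mean of at least 5 FPKM (0.0176), robust eBayes (0.00914), all 14 libraries (0.000219) and no small RNA genes (0.0339). The causes were not tested. Wfikkn2 in the late set ranged from -1.05 to -0.50 over 17 alternatives, of which 3 called it and 14 did not.

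Small differences that never passed changed sign. Fstl1 at day 3 was 0.0076 with the replicate block and -0.26 to 0.025 without single libraries, and Wfikkn2 -0.047 to 0.17 without single libraries. Late Fstl1 was -0.26 with day 7 alone and -0.25 to 0.52 without single libraries. Without single libraries Fstl1 was -0.16 to 0.61 for the difference of effects and -0.22 to 0.24 between days 14 and 7. Between controls, Fstl1 was 0.19 with the replicate block and 0.15 with day 7 alone, and -0.62 to 0.15 without single libraries. There Wfikkn2 was 0.019 with rescaling, 0.068 with quantile normalization, 0.12 with the replicate block, 0.037 with day 7 alone, and -0.096 to 0.039 without single libraries.

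Same-numbered libraries correlated at -0.06 to -0.03 at day 3 and 0.01 at day 7. With the replicate block 19 genes passed at day 3 against 168, and 164 late against 608, it changed no member's call, and the 3 pathway calls of day 3 and 5 of the 7 late ones did not pass. Genes called fell to 39 and 51 without control day 3 replicate 1 or 2, and to 43, 145 and 62 without control day 7 replicate 1 or 2 or the day 14 control. Rescaling moved the median of all genes for the difference of effects from -0.11 to -0.0027. Fstl3 and Wfikkn1, which lay under the filter, had limma adjusted p of 0.54 to 0.97 when tested with none.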
